A study of Saccharomyces cerevisiae with 10 samples.

Results

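The proteasome is the large protease that degrades proteins tagged with ubiquitin. Its genes were followed here at the RNA level in budding yeast (Saccharomyces cerevisiae) that lacks SUA5. The set was chosen by gene symbol and holds 36 of the 5449 genes tested: 14 subunits of the core particle, 19 subunits of the regulatory particle, the transcription factor RPN4, and the assembly and association factors UMP1 and ECM29. Each was measured by 1 probe set. The rule that chose the genes used no intensity, but the set was chosen with earlier results of these data known.

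SUA5 encodes an enzyme that helps make a modified adenosine in transfer RNAs. BY4742, a laboratory haploid with mating type alpha, served as wild type (3 arrays). The sua5D strains were spores of mating type a dissected from a diploid of BY4743 background that was heterozygous for the deletion. They were restreaked on YPD, a rich medium, and taken after the first restreaking (4 arrays, labelled as 35 generations after sporulation) and the 12th restreaking (3 arrays, labelled as 300 generations). All cultures grew in liquid YPD and were harvested in mid-log phase. The design text calls the cultures of a group independent clones.

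The labels were checked first. SUA5 had a mean intensity of 520 ± 12.8 (SD, n = 3) in wild type, 2.45 ± 2.12 (n = 4) in the first and 4.11 ± 1.68 (n = 3) in the 12th restreaking, and the last 2 values lay under the background limits of the arrays, which were 10.8 to 17.5. All 7 genes specific to mating type a were higher and all 4 specific to mating type alpha were lower in both sua5D groups. Loss of SUA5, mating type and passage through the diploid therefore cannot be told apart in a comparison with wild type. Over all genes, replicates 1 and 2 of the first restreaking were alike, and so were replicates 3 and 4, although all 4 are described as independent. For the proteasome genes the difference between the pair means ran from -0.09 to 0.12 on the log2 scale. Of the 36, 7 separated fully by pair, beside 46.0% of all genes. The lowest intensity of any of the 36 genes on any array was 347, far above background. In RNA from whole cultures, fewer cells that express a gene and less RNA per cell cannot be told apart.

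In the cell, the core particle is a barrel of stacked rings. Outer rings of alpha subunits gate the entrance, and inner rings of beta subunits hold the proteolytic sites. The regulatory particle caps the barrel: its base holds ATPases that unfold a substrate and thread it inward, and its lid removes the ubiquitin chain. Most of these genes are transcribed through Rpn4, a short-lived activator that the proteasome itself degrades, so that a cell with too little proteasome activity accumulates Rpn4 and makes more subunits.

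In the first restreaking against wild type, 25 of the 36 genes fell, 2 rose and 9 did not pass the test (limma, adjusted p under 0.05 over all genes). Most genes on the array differed in this comparison: 79.0% of all genes tested passed, 37.5% lower and 41.5% higher. Of the proteasome genes 69.4% were lower and 5.56% were higher. Their median log2 change was -0.28, and that of all genes was 0.03. In the 12th restreaking against wild type, 20 of 36 genes fell and 6 rose, beside 77.8% of all genes that passed, 36.9% lower and 40.9% higher. Without 12th replicate 3, 3 of the 36 rose. The median log2 change was then -0.17, and again 0.03 for all genes. Counted by arrays alone, in the first restreaking 23 of the 36 genes had every array under the wild-type range and 3 had every array over it, beside 36.3% and 40.4% of all genes. In the 12th it was 21 under and 6 over, beside 37.8% and 41.9%. Both comparisons use the same 3 wild-type arrays.

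RPN4 stood apart from most of the subunit genes. It read 1687, 1531 and 1626 in wild type, 2394, 2173, 2301 and 2229 in the first restreaking, and 2472, 2517 and 2462 in the 12th. Every sua5D array was above every wild-type array. RPN4 rose 1.40-fold in the first restreaking (log2 0.49, limma adjusted p = 1.81e-07) and 1.53-fold in the 12th (log2 0.62, adjusted p = 3.89e-08). Among all genes, its change stood at percentile 75.1 in the first restreaking. The subunit genes divided otherwise: 1 of 33 rose and 23 fell in the first restreaking, and 5 rose and 18 fell in the 12th.

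**Figure D1:**
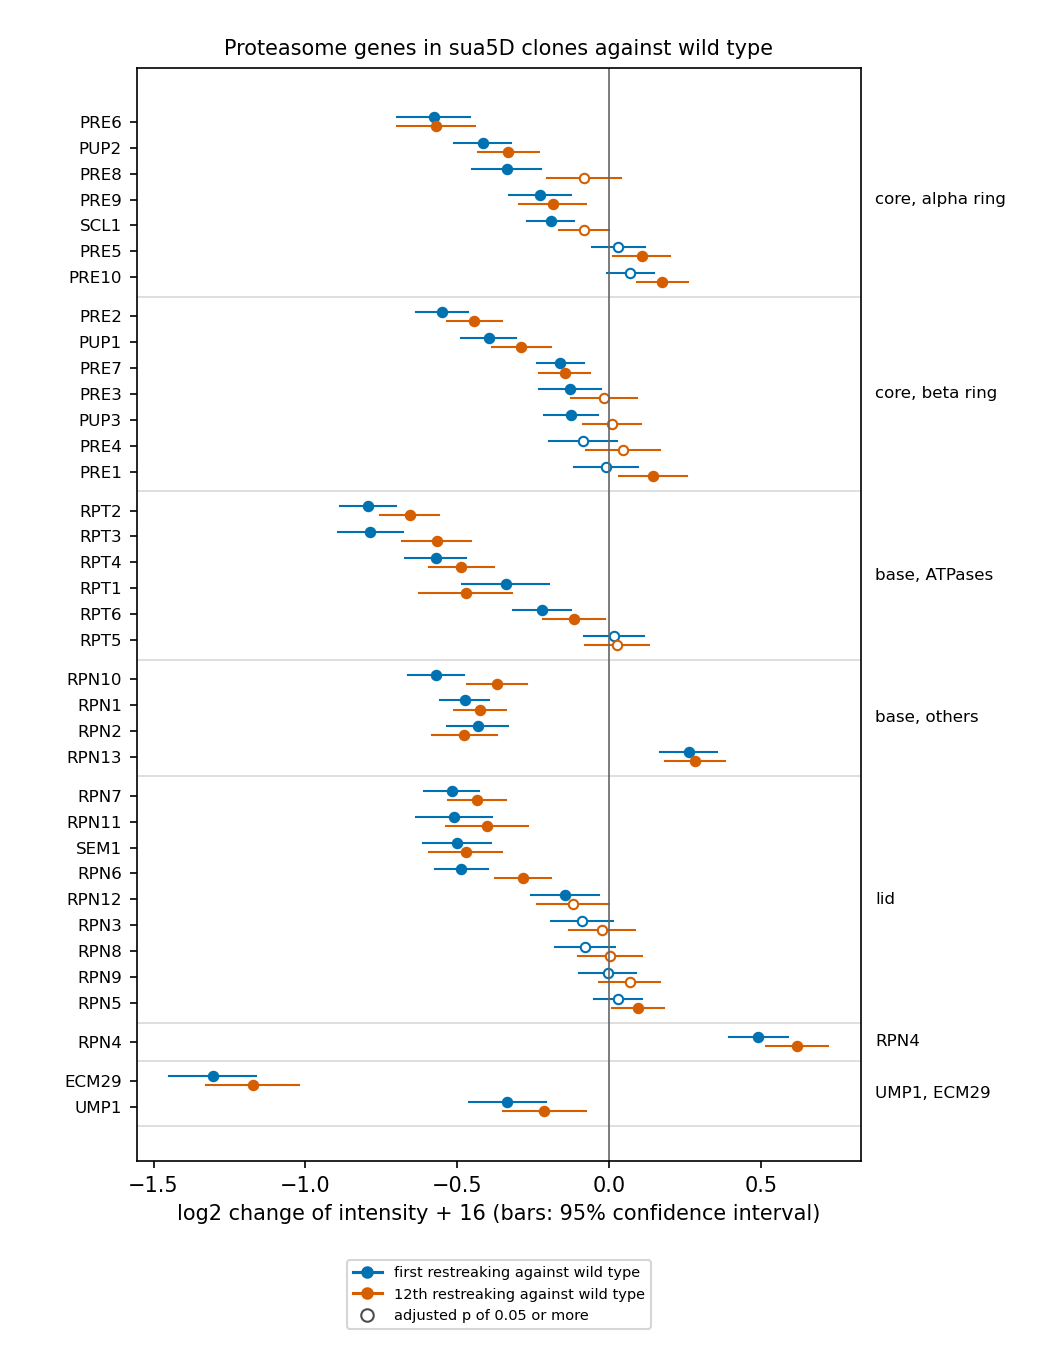
Log2 change against wild type of each of the 36 genes, in the first and the 12th restreaking, with 95% confidence intervals and the genes grouped by their place in the proteasome. RPN4 lies to the right of 0 at 0.49 and 0.62, ECM29 lies farthest to the left at -1.30 and -1.17, and the base genes other than RPT5 and RPN13 lie to the left of 0 on the deposited scale, although RPT6 in the 12th restreaking moves to 0.00 under quantile normalization.

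In the alpha ring, 5 of 7 genes fell in the first restreaking, with a median log2 change of -0.23. PRE6 read 2632, 2320 and 2616 in wild type, 1770, 1591, 1689 and 1681 in the first restreaking, and 1760, 1587 and 1734 in the 12th. No sua5D array reached the wild-type range. PRE6 fell 1.49-fold (log2 -0.58, adjusted p = 3.2e-07) and 1.48-fold (log2 -0.57, adjusted p = 8.46e-07). PUP2 fell by 0.42 and by 0.33 on the log2 scale. PRE9, known as the only core subunit gene that yeast can live without, fell by 0.23 and by 0.19. SCL1 and PRE8 fell by 0.19 and by 0.34 in the first restreaking, and were at -0.08 (adjusted p = 0.0576) and -0.08 (adjusted p = 0.192) in the 12th, where neither passed.

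PRE10 and PRE5 had values above wild type in the same ring. PRE10 read 2367, 2378 and 2415 in wild type, 2446, 2562, 2525 and 2488 in the first restreaking, and 2787, 2622 and 2682 in the 12th. The arrays of the 3 groups formed successive ranges with no overlap. Its log2 change was 0.07 in the first restreaking (adjusted p = 0.0929) and 0.17 in the 12th (1.13-fold, adjusted p = 0.000888). PRE5 rose 1.08-fold in the 12th restreaking (adjusted p = 0.0375). That call was lost without 12th replicate 1 (adjusted p = 0.108), 12th replicate 3 (0.0817), wild-type replicate 1 (0.139) or wild-type replicate 2 (0.0877).

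In the beta ring, 5 of 7 genes fell in the first restreaking, with a median log2 change of -0.13. PRE3, PUP1 and PRE2 carry the caspase-like, trypsin-like and chymotrypsin-like sites. PRE2 read 2681, 2671 and 2748 in wild type, 1854, 1804, 1863 and 1833 in the first restreaking, and 2040, 1878 and 2025 in the 12th. All 7 sua5D arrays lay well under the wild-type range. PRE2 fell 1.46-fold (log2 -0.55, adjusted p = 1.41e-08) and 1.36-fold (log2 -0.44, adjusted p = 3.02e-07). PUP1 fell 1.32-fold and 1.22-fold. PRE3 fell 1.09-fold in the first restreaking (adjusted p = 0.0223), a call lost without first-restreaking replicate 4 (adjusted p = 0.0694) or wild-type replicate 1 (0.102), and it was at -0.02 in the 12th (adjusted p = 0.742).

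The other 4 beta subunits have no proteolytic site. PRE1 read 1856, 1743 and 1626 in wild type, 1762, 1625, 1780 and 1736 in the first restreaking, and 1916, 1915 and 1941 in the 12th. The first group overlapped wild type and the 12th lay above both. PRE1 was at -0.01 in the first restreaking (adjusted p = 0.826) and rose by 0.14 in the 12th (adjusted p = 0.0211). That rise was lost without 12th replicate 3 (adjusted p = 0.0588) or wild-type replicate 3 (0.11). PRE7 fell by 0.16 and by 0.15. PUP3 fell by 0.12 in the first restreaking, a call lost without wild-type replicate 1 (adjusted p = 0.0722), and was at 0.01 in the 12th. PRE4 was at -0.09 (adjusted p = 0.142) and 0.04 (adjusted p = 0.475) and passed in the first restreaking without wild-type replicate 2 (log2 -0.15, adjusted p = 0.00704) and with equal array medians (log2 -0.20).

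Among the lists of subunits, those of the base of the regulatory particle had the lowest medians. Of its 10 genes, 8 fell and 1 rose in each sua5D group, with a median log2 change of -0.45 in both. Among the 6 ATPase genes, RPT2 read 1776, 1905 and 1903 in wild type, 1100, 1052, 1080 and 1033 in the first restreaking, and 1167, 1181 and 1175 in the 12th. The 3 groups did not overlap. RPT2, whose product helps open the gate of the core particle, fell 1.73-fold (log2 -0.79, adjusted p = 7.35e-10) and 1.58-fold (log2 -0.66, adjusted p = 1.22e-08).

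The genes of the other ATPases in the ring did not all move with RPT2. RPT3 fell 1.72-fold and 1.48-fold, and RPT4 fell 1.49-fold and 1.40-fold. RPT1 fell 1.27-fold and 1.39-fold. RPT6 fell 1.17-fold and 1.08-fold, the latter with an adjusted p of 0.0352 that rose to between 0.0684 and 0.129 without any single 12th array, wild-type replicate 2 or wild-type replicate 3. RPT5 read 1717, 1878 and 1893 in wild type, 1855, 1880, 1886 and 1773 in the first restreaking, and 1796, 1937 and 1848 in the 12th. These ranges overlap throughout. The log2 change of RPT5 was 0.02 in each comparison (adjusted p = 0.761 and 0.661), with a 95% interval from -0.08 to 0.12 in the first restreaking.

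Among the non-ATPase genes of the base, the large scaffolds RPN1 and RPN2 fell by 0.48 and by 0.43 in the first restreaking and by 0.43 and by 0.48 in the 12th. The other members, RPN10 and RPN13, encode ubiquitin receptors and moved in opposite directions. RPN10 read 1405, 1398 and 1414 in wild type, 958, 918, 917 and 974 in the first restreaking, and 1116, 1095 and 1042 in the 12th. RPN13 read 1357, 1372 and 1383 in wild type, 1564, 1667, 1693 and 1661 in the first restreaking, and 1596, 1681 and 1735 in the 12th. For both genes all sua5D arrays lay outside the wild-type range, under it for RPN10 and over it for RPN13. RPN10 fell 1.48-fold (adjusted p = 2.56e-08) and 1.29-fold (adjusted p = 4.99e-06). RPN13 rose 1.20-fold (adjusted p = 7.08e-05) and 1.22-fold (adjusted p = 6.91e-05), and it was the only subunit gene that rose in the first restreaking on the deposited scale.

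The 9 lid genes divided. RPN6, RPN7, RPN11 and SEM1 fell in both sua5D groups, RPN12 fell in the first restreaking alone by the test, and the median log2 change was -0.15 and -0.12. RPN7, a scaffold subunit of the lid, read 2257, 2213 and 2385 in wild type, 1629, 1523, 1590 and 1615 in the first restreaking, and 1697, 1709 and 1646 in the 12th. The sua5D arrays were all under the wild-type range. RPN7 fell 1.43-fold (log2 -0.52, adjusted p = 4.63e-08) and 1.35-fold (log2 -0.44, adjusted p = 6.44e-07). RPN11, which encodes the deubiquitinase of the lid, fell 1.43-fold and 1.32-fold. Its partner RPN8 was at -0.08 (adjusted p = 0.117) and 0.00 (adjusted p = 0.951). SEM1, the smallest lid subunit, fell 1.41-fold and 1.39-fold, and RPN6 fell 1.40-fold and 1.22-fold.

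RPN3, RPN5, RPN8 and RPN9 did not pass in the first restreaking. RPN5 read 2370, 2417 and 2492 in wild type, 2467, 2418, 2504 and 2506 in the first restreaking, and 2501, 2664 and 2602 in the 12th. The 12th arrays lay just above the wild-type range. RPN5 rose by 0.09 in the 12th restreaking (adjusted p = 0.045), and the adjusted p was between 0.0553 and 0.164 without first-restreaking replicate 3 or 4, 12th replicate 2 or 3, or wild-type replicate 1 or 2. RPN12 fell by 0.15 in the first restreaking (adjusted p = 0.0186), which was lost without first-restreaking replicate 3 (0.0501), wild-type replicate 1 (0.0604) or wild-type replicate 3 (0.086). In the 12th it was at -0.12 (adjusted p = 0.0621) and passed without 12th replicate 2 (0.0285) or wild-type replicate 2 (0.0214). RPN3 was at -0.09 in the first restreaking (adjusted p = 0.098) and passed without wild-type replicate 1 (log2 -0.14, adjusted p = 0.0171).

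ECM29, which tethers the core and regulatory particles and takes part in their quality control, had the largest fall of the 36 genes. It read 1003, 965 and 824 in wild type, 383, 359, 376 and 347 in the first restreaking, and 396, 409 and 401 in the 12th. All sua5D arrays lay far under the lowest wild-type array. ECM29 fell 2.47-fold (log2 -1.30, adjusted p = 4.59e-10) and 2.26-fold (log2 -1.17, adjusted p = 3.13e-09), and it was the only one of the 36 genes past 2-fold. UMP1, the chaperone that matures the core particle, read 1015, 903 and 1024 in wild type, 796, 707, 770 and 820 in the first restreaking, and 844, 832 and 850 in the 12th. It too had no overlap, and it fell 1.26-fold (adjusted p = 0.000128) and 1.16-fold (adjusted p = 0.00694).

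**Figure D2:**
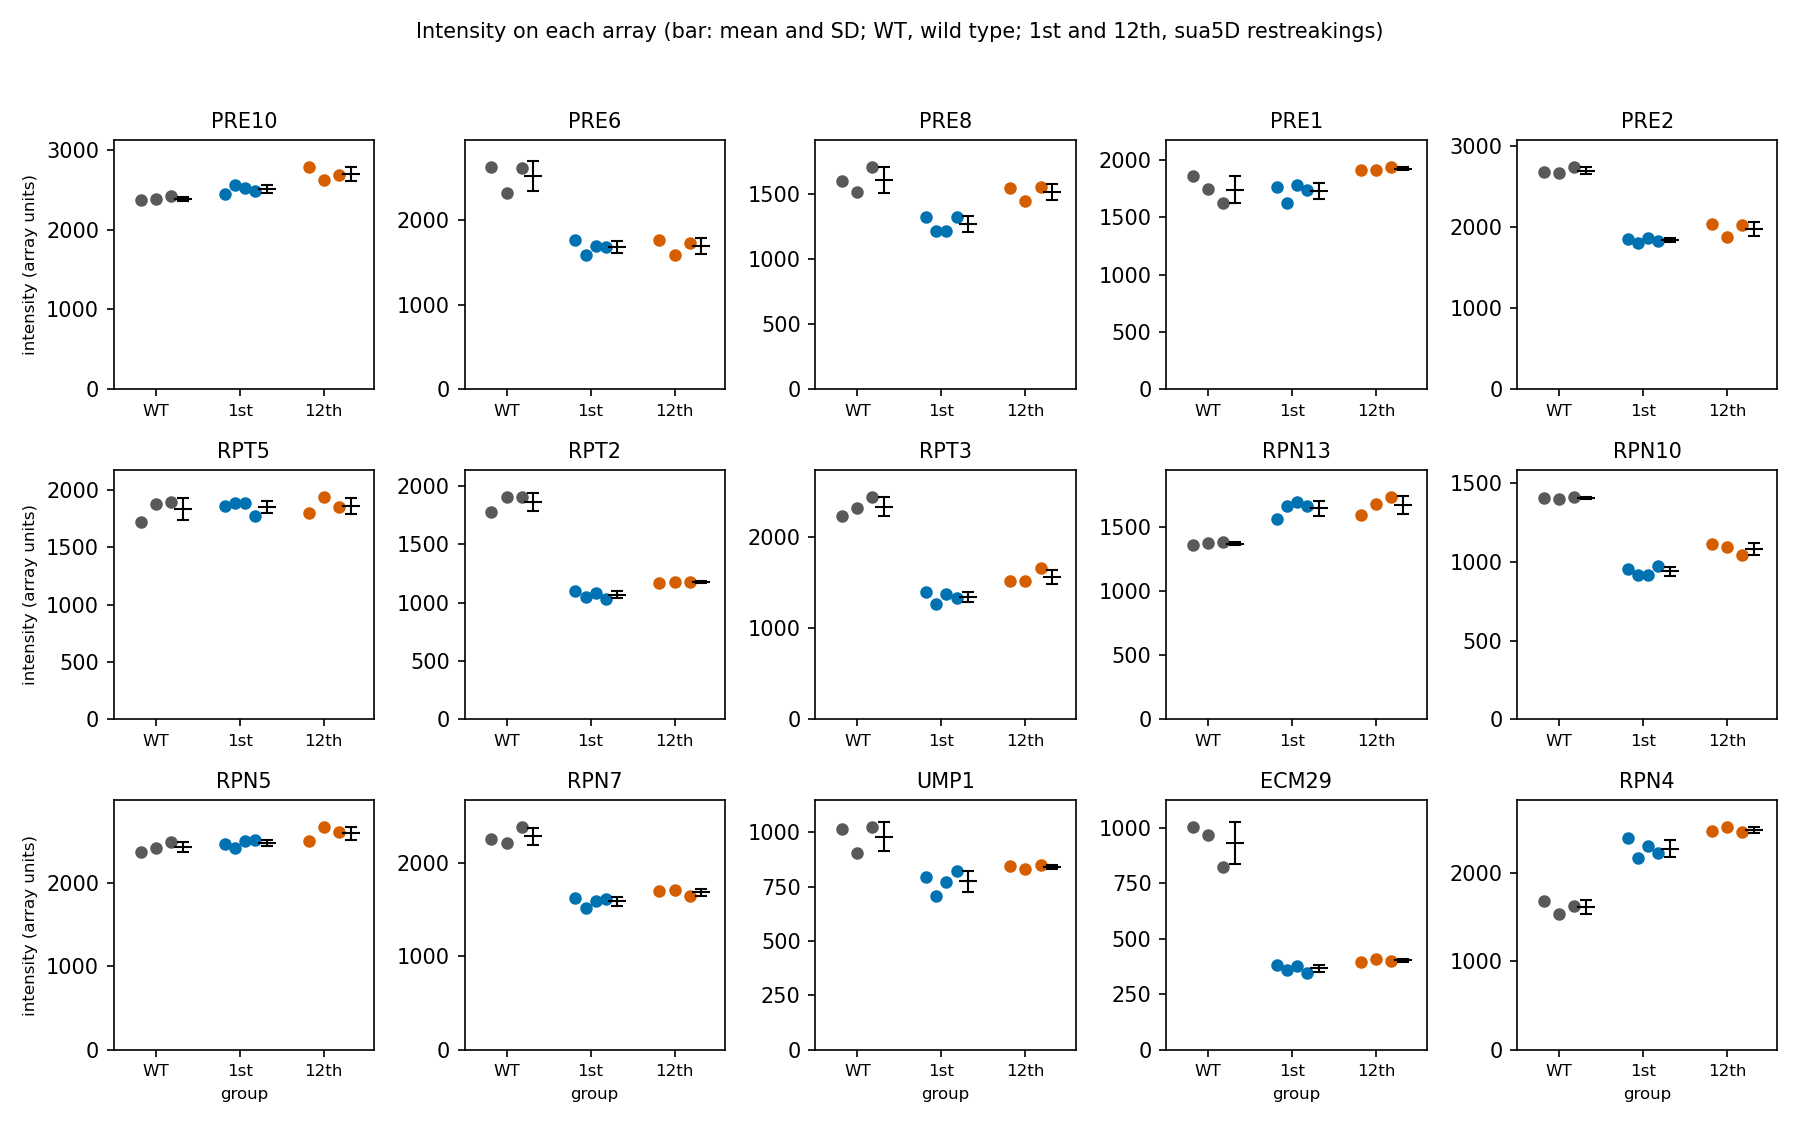
Intensity of 15 of the genes on each of the 10 arrays (points) with group means (bars), by group. PRE6, PRE2, RPT2, RPT3, RPN10, RPN7 and ECM29 lie lower on all sua5D arrays than on the wild-type arrays, RPN13 and RPN4 lie higher on all of them, and RPT5 overlaps across the 3 groups.

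The shift was present on each sua5D array. The median log2 deviation of the 19 regulatory genes from the wild-type mean was -0.40 to -0.47 on the 4 first-restreaking arrays and -0.33 to -0.41 on the 3 later ones. For the 14 core genes it was -0.13 to -0.21 and -0.06 to -0.11. On the wild-type arrays themselves the regulatory median was between -0.02 and 0.03. Over the comparison as a whole, 13 of 19 regulatory genes fell in the first restreaking (median log2 change -0.43) and 10 of 14 core genes did (median -0.18). In the 12th, 12 of 19 and 6 of 14 fell (medians -0.37 and -0.08). The difference between the particles was not tested.

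These changes depended in part on how the arrays are set to a common scale. Setting the array medians equal lowered the median change of all genes by 0.11 in both comparisons with wild type, and quantile normalization, which gives all arrays the same distribution, lowered it by 0.10. Equal medians gave 31 lower and 2 higher among the 36 genes in the first restreaking, and 27 lower and 2 higher in the 12th. Among all 5449 genes, equal medians gave 2475 lower and 1958 higher in the first restreaking, and 2384 lower and 1879 higher in the 12th. The rises of PRE10, PRE5, PRE1 and RPN5 in the 12th restreaking were then lost. Quantile normalization gave 21 lower and 5 higher, and 17 lower and 7 higher. Among all 5449 genes it gave 2402 lower and 1807 higher in the first restreaking, and 2293 lower and 1789 higher in the 12th. Under it PRE5, PRE10 and RPN5 rose in the first restreaking, the falls of PRE3, PUP3, PRE7 and RPN12 there were lost, and so were those of PRE9, PRE7 and RPT6 in the 12th. Relative to the median of all genes, the median of the 36 genes was -0.31 as deposited, -0.32 with equal medians and -0.12 with quantile normalization in the first restreaking. In the 12th these values were -0.20, -0.20 and -0.03. Of the 27 genes called in the first restreaking, 23 were called in the same direction under all 22 alternatives, RPN4, RPN13, RPN10, ECM29 and RPT1, RPT2, RPT3, RPT4 and RPT6 among them. In the 12th it was 19 of 26.

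Between the 12th and the first restreaking the deletion and the mating type are the same, and the number of passages differs. The clones may differ in other ways too, since the first-restreaking arrays were alike in pairs over all genes. These pairs were fully separated in 46.0% of all genes, and the share that chance alone gives was not computed. Passage and differences between clones cannot be told apart here. Of the 36 genes, 7 rose and 0 fell, beside 15.9% of all genes that passed, 6.83% higher and 9.07% lower. By limma at an unadjusted p under 0.05, 15 rose and 0 fell. The shares of all genes at this looser threshold are not given, so these counts cannot be set against them. The estimates of 34 of 36 genes were above 0, as were those of 2794 of 5449 genes overall. The median log2 change was 0.09, and 0.00 over all genes. The sizes were small, from -0.13 to 0.25, beside differences of -0.09 to 0.12 between the pair means within the first restreaking. All 14 core genes had an estimate above 0. By arrays alone, 19 of 36 genes had all later arrays above all earlier ones and 1 had them below, beside 13.4% and 15.5% of all genes.

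PRE8 had the largest called rise. It read 1326, 1217, 1218 and 1324 in the first restreaking and 1546, 1452 and 1559 in the 12th, beside 1604, 1517 and 1714 in wild type. The later arrays lay above all earlier ones and overlapped wild type. PRE8 rose 1.19-fold (log2 0.25, adjusted p = 0.00851). The other 6 were RPT3 (log2 0.22, adjusted p = 0.0129), RPN6 (0.20, 0.00626), RPN10 (0.20, 0.00976), PRE1 (0.16, 0.0449), RPT2 (0.14, 0.0436) and PUP3 (0.13, 0.0447). RPN6 and RPN10 passed under all 22 alternatives. PUP3 and PRE1 missed the threshold without any single array of the first or 12th restreaking, PRE1 also without wild-type replicate 2 (adjusted p from 0.05 to 0.18 over both). RPT2 missed it without any single array of these groups except first-restreaking replicate 1, and without wild-type replicate 3 (0.0503 to 0.132). PRE8 and RPT3 missed the threshold without 12th replicate 3, with adjusted p = 0.0503 and 0.0757.

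RPN4 was at 0.13 in this comparison, with a 95% interval from 0.03 to 0.22 (adjusted p = 0.0704). All 3 later RPN4 arrays lay above the 4 earlier ones. The gene passed without first-restreaking replicate 1 (log2 0.15, adjusted p = 0.0383). PRE3 passed without first-restreaking replicate 2 (adjusted p = 0.0419) and PRE4 without wild-type replicate 2 (0.0401). RPT1 ran the other way: its 3 later arrays, at 1702, 1653 and 1656, lay under the 4 earlier ones, at 1735, 1858, 1756 and 1986, but the log2 change of -0.13 did not pass (adjusted p = 0.204). The number of rises fell to 2 of 36 without 12th replicate 3, and to 4 without 12th replicate 1, 12th replicate 2, first-restreaking replicate 3 or first-restreaking replicate 4. The counts over all genes, 372 higher and 494 lower, also moved with single arrays. They were 79 and 188 without 12th replicate 3, 114 and 261 without 12th replicate 2, 211 and 333 without 12th replicate 1, and 215 and 387 without first-restreaking replicate 2.

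**Figure D3:**
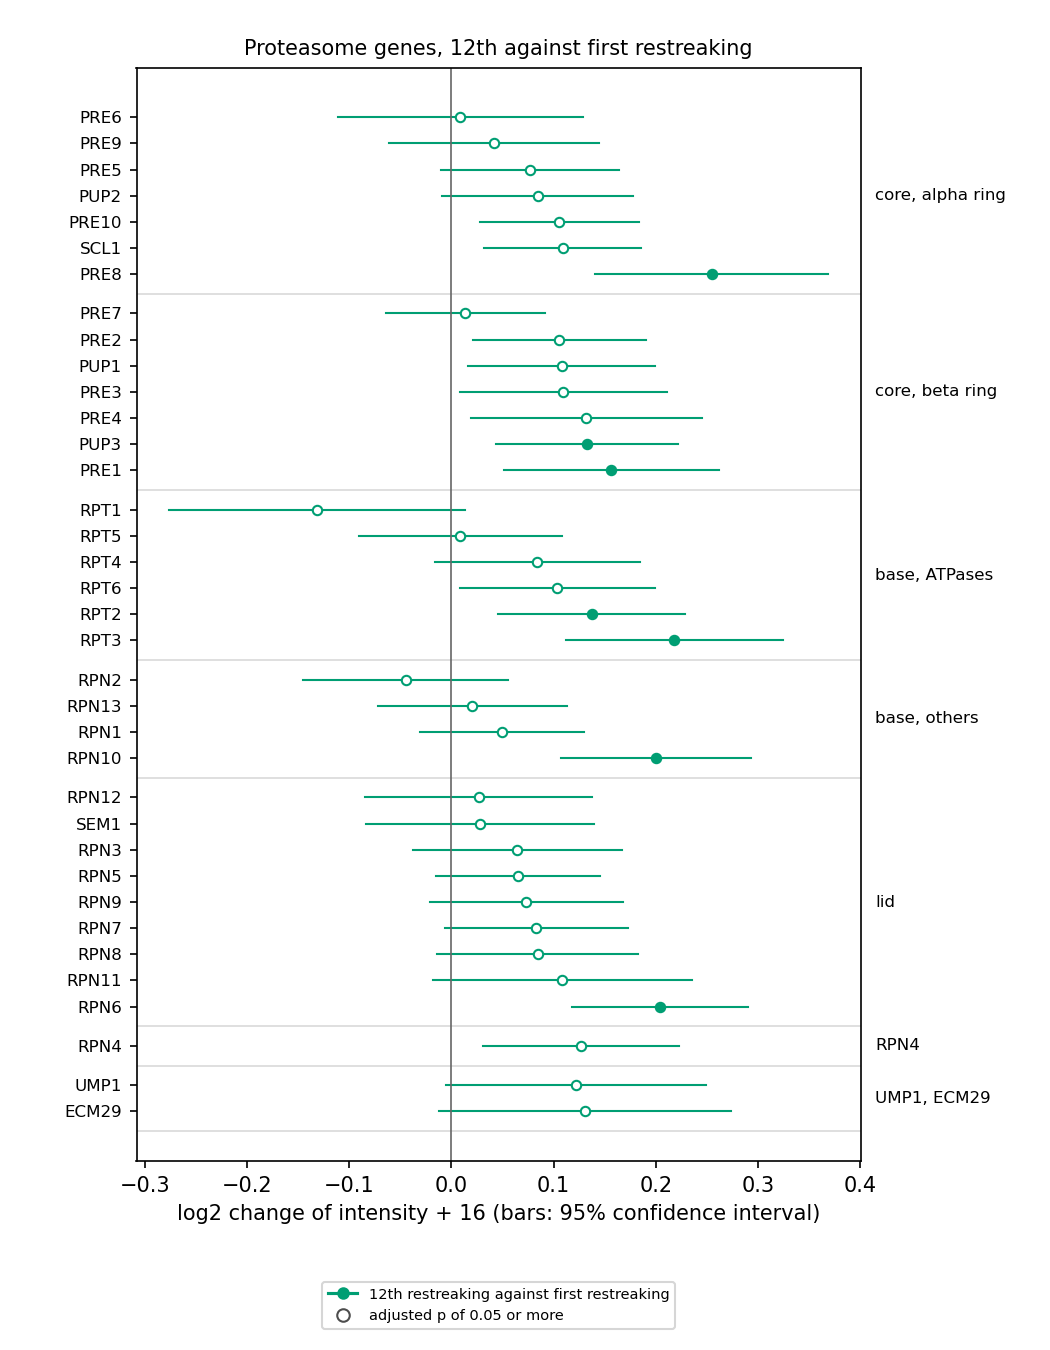
Log2 change from the first to the 12th restreaking of each of the 36 genes, with 95% confidence intervals. The estimates run from -0.13 (RPT1) to 0.25 (PRE8), 34 of 36 lie above 0, and the 7 called genes are marked.

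Other genes of the ubiquitin and proteasome pathway were read from 7 further lists, which hold 65 genes. In the first restreaking 24 of them rose (36.9%) and 29 fell (44.6%), near the 41.5% and 37.5% of all genes. The counts of the single lists, given next, stand against the same shares. Of the assembly chaperones that are not among the 36 genes and BLM10, the gene of an alternative cap, 6 of 10 rose and 2 fell, with a median log2 change of 0.38. TMA17, also named ADC17, encodes a chaperone of the base that is induced under stress. It read 368, 290 and 323 in wild type, 1197, 1081, 1045 and 1085 in the first restreaking, and 1254, 1470 and 1376 in the 12th. The sua5D arrays were all far above the wild-type range. TMA17 rose 3.27-fold (log2 1.71, adjusted p = 1.36e-10) and 4.04-fold (log2 2.02, adjusted p = 6.79e-11), and by 0.31 from the first to the 12th restreaking (adjusted p = 0.0199), which was lost without 12th replicate 2 (0.0945) or 12th replicate 3 (0.076). It was also lost with the pairs of first-restreaking arrays averaged (0.0716), with first-restreaking replicates 3 and 4 left out together (0.0763) and with the replicate block (0.0527).

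Of the chaperones of the alpha ring, ADD66 rose 1.60-fold and 1.72-fold, and POC4 rose 1.48-fold and 1.60-fold. PBA1, the partner of ADD66, did not pass (log2 0.13 and 0.16, adjusted p = 0.0952 and 0.0501), and it was named after its values were seen. Named after their values were seen, NAS2 and RPN14, chaperones of the base, and IRC25, the partner of POC4, rose in the first restreaking by 1.52-fold, 1.25-fold and 1.36-fold, and BLM10 and the base chaperone gene HSM3 fell 1.45-fold and 1.24-fold. RPN14 missed the threshold under quantile normalization (adjusted p = 0.308). Of 6 genes for factors that bind the proteasome, 3 rose and 2 fell. The 3 rises were TMC1 at 2.11-fold, FUB1, a relative of the mammalian inhibitor PI31, at 1.72-fold, and SPG5, a regulator in stationary phase, at 1.61-fold. The 2 falls, named after their values were seen, were the proteasome deubiquitinase gene UBP6 at 1.31-fold and the ubiquitin ligase gene HUL5 at 1.19-fold.

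Genes that act on Rpn4 itself went in both directions. Of 8 genes for Rpn4 turnover and for transcription of RPN4, 3 rose and 2 fell in the first restreaking, with a median log2 change of -0.02. UBR2, the ubiquitin ligase that marks Rpn4, read 338, 331 and 314 in wild type, 201, 215, 232 and 219 in the first restreaking, and 234, 170 and 214 in the 12th. It fell 1.48-fold (adjusted p = 5.25e-05) and 1.56-fold (adjusted p = 3.07e-05), with no overlap of arrays. Its conjugating enzyme RAD6 rose 1.30-fold and 1.28-fold. HSF1, a heat-shock transcription factor that acts on the RPN4 promoter, rose 1.44-fold and 1.38-fold. The remaining calls, named after their values were seen, were MUB1, the partner of Ubr2, which rose 1.18-fold but missed the threshold with equal medians (adjusted p = 0.119) and with quantile normalization (0.0802), and the ligase gene UBR1, which fell 1.25-fold. YAP1, PDR1 and PDR3, other activators of RPN4 and also named afterwards, did not pass in the first restreaking.

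**Figure D4:**
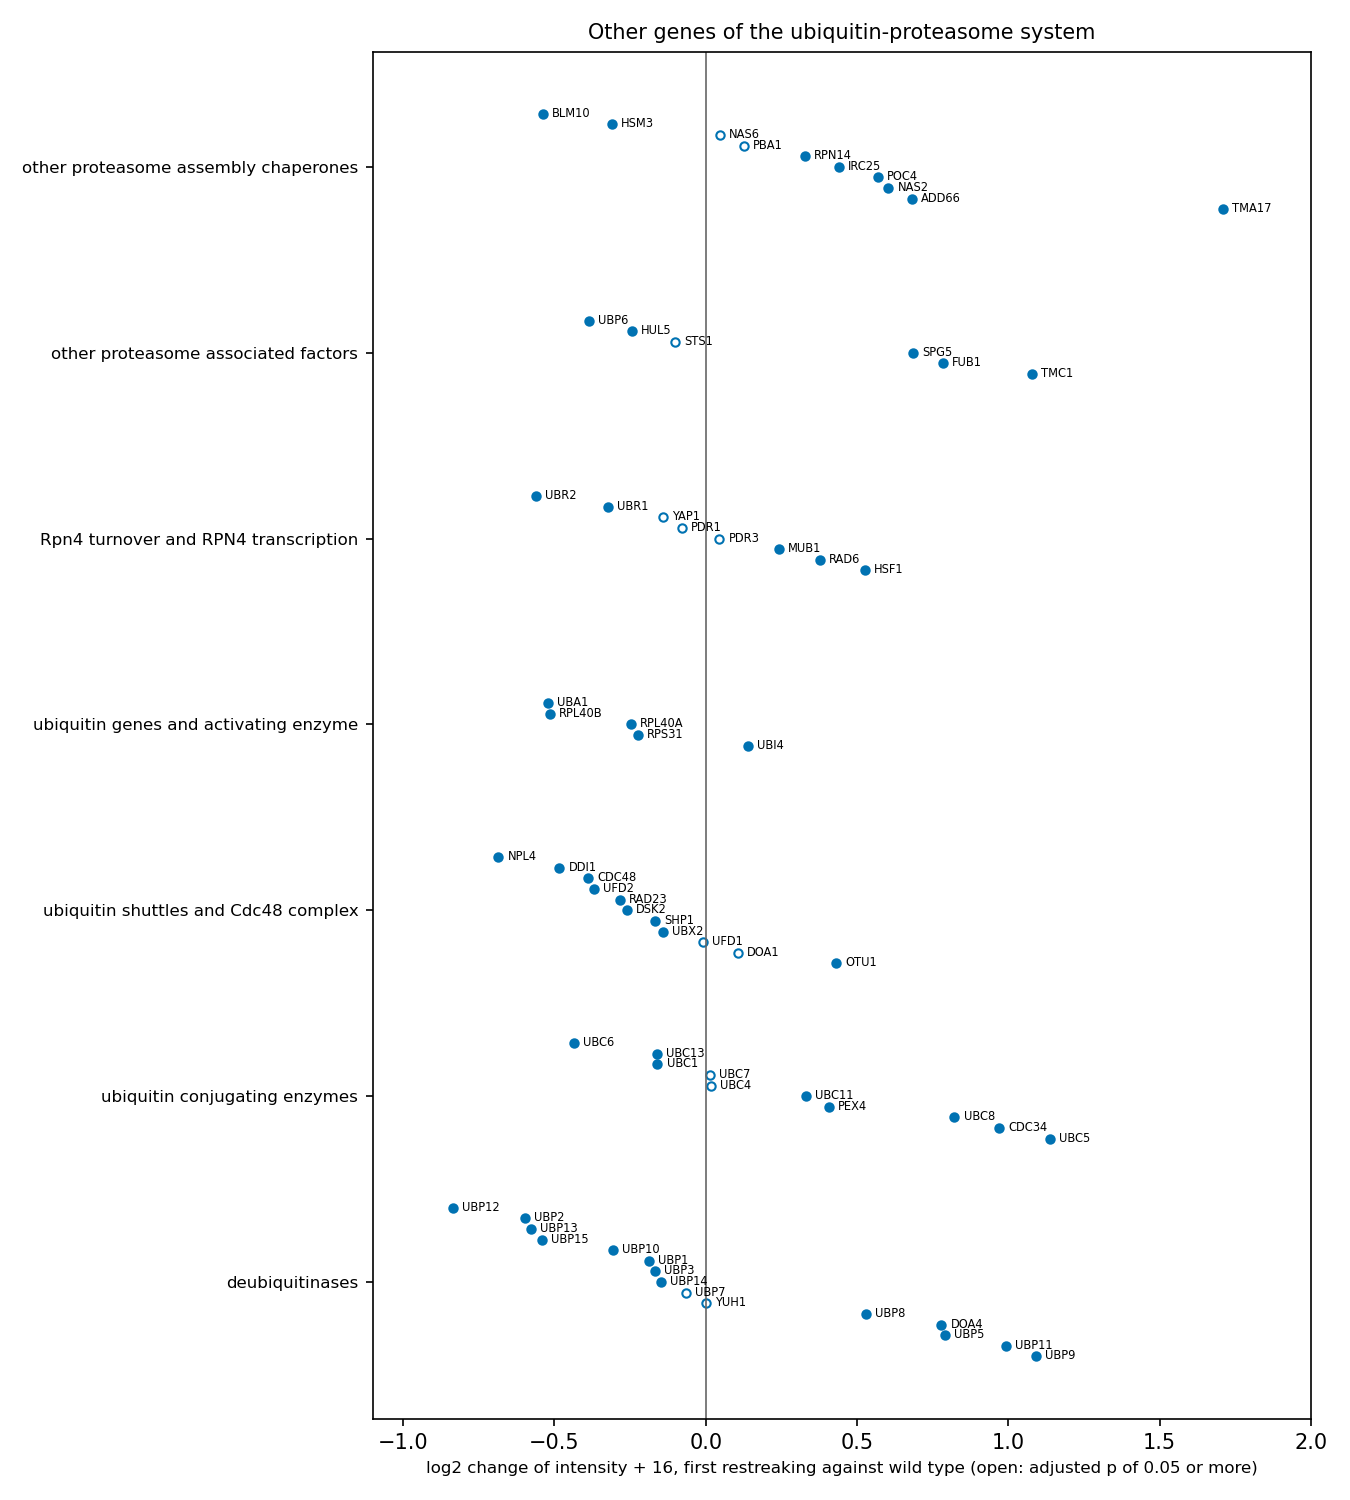
Log2 change against wild type of the genes of the other lists of the ubiquitin and proteasome pathway, in the first restreaking. TMA17 lies farthest to the right at 1.71, UBR2 lies at -0.56, and the shuttle and Cdc48 genes lie mostly to the left of 0.

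Upstream of the proteasome, most genes listed for ubiquitin and for the delivery of substrates had lower RNA in the first restreaking. The amount of ubiquitin was not measured. Of 4 ubiquitin genes and the activating enzyme gene UBA1, 4 fell and 1 rose. UBA1 read 3786, 3588 and 3706 in wild type, 2730, 2548, 2533 and 2467 in the first restreaking, and 2304, 2517 and 2482 in the 12th, and fell 1.44-fold and 1.51-fold. RPL40B fell 1.43-fold in both groups, and RPL40A fell 1.19-fold and 1.23-fold. These are near-identical copies, so which copy the signal comes from is uncertain. The fall of RPS31 in the first restreaking, named after its value was seen, missed the threshold under quantile normalization (log2 -0.05, limma adjusted p = 0.0891). The rise was that of UBI4, the polyubiquitin gene that is induced under stress, named after its value was seen. It was 1.10-fold (adjusted p = 0.0433), and the adjusted p was between 0.0547 and 0.230 without first-restreaking replicate 1 or 2, 12th replicate 3, or wild-type replicate 1 or 3. With equal array medians the log2 change of UBI4 was 0.02 in place of 0.14 (adjusted p = 0.732), and the call was also lost with the first-restreaking pairs averaged (0.0784) and without the intensity trend (0.0746).

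Of 11 genes for shuttle factors and the Cdc48 complex, which extracts ubiquitinated proteins and hands them on, 8 fell and 1 rose, with a median log2 change of -0.26. NPL4, a Cdc48 cofactor, fell 1.61-fold and 1.54-fold, CDC48 fell 1.31-fold and 1.26-fold, and the chain-elongating ligase gene UFD2 fell by 0.37 and by 0.59 on the log2 scale. The 1 rise was that of the deubiquitinase gene OTU1, at 1.35-fold, named after its value was seen. For NPL4, CDC48 and UFD2, all sua5D arrays lay under the wild-type range. The falls of SHP1 and UBX2, also named after their values were seen, depended on the setting. SHP1 missed the threshold under quantile normalization (limma adjusted p = 0.0589). UBX2 missed it with the first-restreaking pairs averaged (0.0792) and without wild-type replicate 3 (0.153).

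The conjugating enzymes and deubiquitinases were mixed. Of 10 conjugating enzyme genes, 5 rose and 3 fell in the first restreaking. UBC5 rose 2.20-fold and UBC8 rose 1.77-fold, and UBC6, of the endoplasmic reticulum, fell 1.35-fold. CDC34, which encodes a cell cycle enzyme and was named after its values were seen, rose 1.96-fold. The median log2 change of this list was 0.17 as deposited and -0.01 under quantile normalization. Of 15 deubiquitinase genes, 5 rose and 8 fell. UBP9 rose 2.13-fold, UBP11 rose 1.99-fold and UBP5 rose 1.73-fold, each with all sua5D arrays above all wild-type arrays. UBP12 and UBP2, named after their values were seen, fell 1.79-fold and 1.51-fold, with all arrays of the first restreaking under all wild-type arrays. From the first to the 12th restreaking, 6 of the 65 genes rose (9.23%) and 4 fell (6.15%), beside 6.83% and 9.07% of all genes, and 3 of these 10 calls held under all 22 alternatives.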

How the data were processed

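Total RNA of 10 cultures was hybridised after biotin labelling to 1 Affymetrix array each, per the labels' protocols. The authors deposited a linear intensity for each probe set and array, and for the software behind it the sources used here give no name. The arrays had been brought to 1 scale before deposit, since the mean over all probe sets without 2% at each end was 499.8 to 499.9 on every array. Array medians over the tested genes were 602 to 666. The precision is limited by the 10 arrays.

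The platform annotation names 1 gene for 7244 of 10928 probe sets, several for 1 and none for 3683. Gene identifiers matched 5498 probe sets to the R64 RefSeq gene table. The 1746 probe sets of Schizosaccharomyces pombe served as background, with the percentile 95 as each array's limit. The brightest probe set stood for a gene, which left 5449 genes. Chromosomes and gene order come from that table.

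Intensities were taken as log2(intensity + 16), so folds understate changes of dim genes. Tests used limma 3.58.1 in R 4.3.3 (1 mean per group over all 10 arrays, a two-sided test with an intensity trend, adjusted over all genes by Benjamini-Hochberg, threshold 0.05). The script was tested on simulated data. Confidence intervals are unadjusted.

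The proteasome genes and the other lists were chosen with earlier results of these data known. Arrays are given one by one for RPN4, for the largest rise and fall of each proteasome list, for the largest called change between restreakings, and in the other lists for some of the 3 genes with the smallest adjusted p. Alternatives were other added constants, scalings, filters, probe set rules and fits, and leaving out arrays. A search of promoters for the Rpn4 motif was planned and was not run. Same-numbered arrays of different groups did not deviate together (correlations -0.27 to 0.08), so the numbers were not taken as pairs.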

Additional observations from a re-analysis of the deposited data

Results flagged for a closer look

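In the first restreaking, RPN11 had 1 array far from the others. It read 1243, 1098, 1223 and 1232. The gap between replicate 2, the lowest, and the next array was 0.868 of the whole range on the log2 scale. All 36 genes were checked in this way, and only RPN11 was flagged. Chance flags about 1 in 20 groups of 4 arrays, so a flag among 36 genes is not unusual. Groups of 3 were not tested.

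By limma, 7 genes differed between the 12th and the first restreaking. Wild type cancels in this difference, so it is the comparison of restreakings given above and not a further result. The later minus the earlier log2 change against wild type was 0.25 for PRE8, 0.22 for RPT3, 0.20 for RPN6, 0.20 for RPN10, 0.16 for PRE1, 0.14 for RPT2 and 0.13 for PUP3. For all 7, every later array lay above every earlier one, as for 13.4% of all genes, but the same arrays had picked these genes. Only RPN6 and RPN10 passed under all 22 alternatives.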

How the results depend on the processing

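Adding 1 or 64 in place of 16, leaving out genes at background and averaging probe sets left the counts of higher and lower proteasome genes as they were in all 3 comparisons. RPN4 passed against wild type under all 22 alternatives, with log2 changes of 0.38 to 0.56 in the first and 0.50 to 0.68 in the 12th restreaking. Quantile normalization raised the number higher in the first restreaking from 2 to 5, and equal medians lowered that in the 12th from 6 to 2. The 7 rises from the first to the 12th restreaking became 4 with the replicate block, with the pairs of the first restreaking averaged, with its replicates 3 and 4 left out together and without the intensity trend. Leaving out 1 array at a time gave 2 to 7 such rises, 3 to 6 genes higher and 19 to 20 lower in the 12th restreaking, and 23 to 26 lower in the first. RPN4 between restreakings lay between 0.11 and 0.15 when 1 array was left out, and passed only without first-restreaking replicate 1.

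With equal medians, 5 changes turned sign: RPN5 in the first restreaking (-0.087), and PRE5 (-0.0106), PUP3 (-0.11), RPN5 (-0.0236) and RPN8 (-0.11) in the 12th. With quantile normalization RPT6 in the 12th restreaking was at 0.00055. A sign was counted as turned only where 1 of the values passed the test. Over 105 changes of single genes and 22 alternatives, 2195 of 2310 values were counted as unchanged. These stayed on their side of the threshold, but those that did not pass could still change sign. Of the rest, 85 were no longer past the threshold, 24 newly passed and 6 turned. The cause was not tested. The replicate numbers do not pair the arrays, and wild-type replicate 1 carries no number in its title. With the replicate block, 22 genes were lower in the first and 20 in the 12th restreaking, and 4 rather than 6 were higher in the 12th. None of the 36 genes was near background. The counts moved with the scaling and with single arrays left out.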

Other observations

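The 36 genes lie on 13 of the 16 chromosomes. In gene order, PRE4 and RPN12 on chromosome VI have 1 gene between them, as do RPT4 and RPN8 on chromosome XV, and PRE2 and RPN7 on chromosome XVI have 4. PRE2 and RPN7 both fell in the first restreaking, by 0.55 and by 0.52 on the log2 scale, whereas RPT4 fell by 0.57 and RPN8 was at -0.08 with no call.

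The log2 change of the 36 genes in the first restreaking had a Pearson correlation with gene length of -0.49 and a Spearman correlation of -0.22. In the 12th these were -0.51 and -0.30. The genes share the same arrays and are not independent, and the longest of them is ECM29, which had the largest fall.

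The 36 genes varied little between arrays of a group. The median SD of their log2 values was 0.06 in wild type, 0.05 in the first and 0.03 in the 12th restreaking, beside 0.08, 0.08 and 0.06 over all genes. The pairs of first-restreaking arrays were fully separated in 7 of the 36 genes (19.4%) and in 46.0% of all genes. Chance alone also separates some genes, and that share was not computed.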
